A study of Mus musculus with 4 samples.

Results

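The comparison described here sets the array titled WT ALDO against the array titled WT control, 1 array on each side and 2 of the 4 arrays of the study. It asks how RNA in the glomeruli of wild-type mice given aldosterone and salt differed from that of wild-type mice given the control treatment. Each gene was represented by its brightest probe set, by the mean over the 4 arrays, among probe sets annotated with a single gene symbol, and the 9097 genes in the brighter 50% of 18193 were counted. Every difference below is log2(intensity + 16) of WT ALDO minus that of WT control unless another pair is named, so 1 stands for a 2-fold higher value, and the added 16 makes differences of dim genes smaller. Values given as a pair for WT or KO are deposited intensities, control first and ALDO second, and the number that follows in parentheses is the WT difference. With 1 array per group there is no replicate, so no p-value, standard error or test could be given for any gene or gene group. The gene lists below and their members were picked when earlier results of these data were known. Their counts and shares therefore describe the lists and are not independent support.

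Total RNA came from glomeruli of male mice, all of which had lost a kidney by uninephrectomy before treatment. WT control and KO control received a subcutaneous infusion of 2% ethanol and a normal diet, and WT ALDO and KO ALDO received aldosterone and a 6% salt diet for 3 weeks. KO mice lack GC-A (guanylyl cyclase A), which binds the heart's natriuretic peptides, in the whole body, and WT mice are wild type. Aldosterone and salt were given together, so their parts cannot be told apart. The sources used here do not give the strain, the age, the aldosterone dose, how glomeruli were isolated, or whether an array held RNA of a single mouse or of a pool.

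Aldosterone binds the mineralocorticoid receptor, a ligand-activated transcription factor that shares many target genes with the glucocorticoid receptor. In the distal nephron and collecting duct it raises sodium uptake through the epithelial sodium channel ENaC, and the enzyme Hsd11b2 keeps glucocorticoids away from the receptor there. In the glomerulus, a filter built of podocytes, fenestrated endothelium and mesangial cells, aldosterone with a high salt intake is a widely used model of hypertensive injury after loss of a kidney.

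The difference was centred close to 0, with a median of 0.01 over the counted genes, 90% of them between -0.38 and 0.42, and a standard deviation across genes of 0.27. Of the 9097 genes, 30 (0.33%) were higher by 2-fold or more and 32 (0.352%) were lower. At 1.5-fold the counts were 186 (2.04%) and 146 (1.6%), and 51.9% of all counted genes lay above 0. The 2-fold line was not a natural break: the genes just inside it were Slc4a9 at 1.002 and Wfdc17 at -1.01, and on the higher side the next was Slc51a at 0.998. The spread was wider among dim genes, with a standard deviation of 0.32 in the dimmest 25% of the counted genes and 0.23 in the brightest 25%, where 4 genes were higher and 6 lower by 2-fold.

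**Figure D1:**
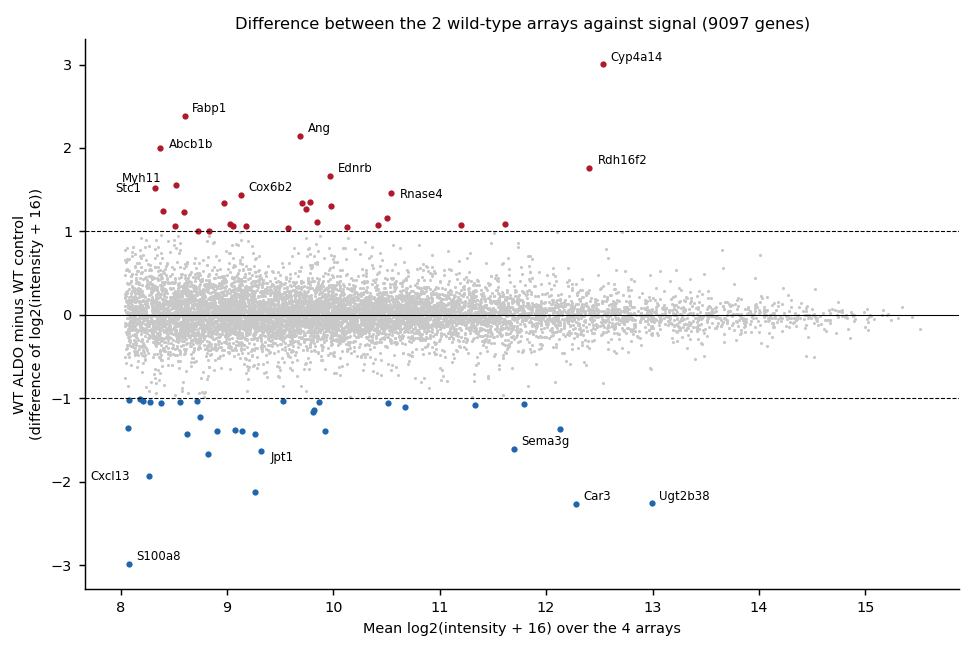
Each point is 1 of 9097 genes, with its mean log2(intensity + 16) over the 4 arrays on the horizontal axis and the WT ALDO minus WT control difference on the vertical axis; coloured points are the 30 genes higher (red) and 32 lower (blue) by 2-fold or more, and dashed lines mark 2-fold. The cloud is centred near 0 and widens toward dim genes, and bright genes such as Cyp4a14, Rdh16f2, Car3, Ugt2b38 and Sema3g stand outside it.

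The RNA held both glomerular and tubular transcripts. Nphs1, which encodes nephrin of the podocyte slit diaphragm, had an intensity of 1752 and 1717 in WT and 1675 and 1899 in KO, and its difference was -0.03. The tubular transcripts Umod (uromodulin of the thick ascending limb) and Slc34a1 (the proximal phosphate transporter) were read at 30426 and 27261 in WT control. In such bulk RNA, fewer cells of a type and less RNA per cell cannot be told apart, and the same holds for more. The array medians were 89.5 in WT control and 91.9 in WT ALDO, the 18 spiked-in control probe sets differed by a median of -0.27 with a range of -0.50 to -0.04, and the 3' to 5' signal ratio of Actb, which falls as RNA is better preserved, was 1.86 and 1.87.

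Genes that answer to corticosteroid receptors and genes of the distal nephron were mostly above 0. Of 29 counted corticosteroid receptor targets, 25 were above 0, 7 past 1.5-fold and none lower by as much, and their median was 0.33 against 0.01 for all counted genes. Pdk4, the kinase that shuts off pyruvate oxidation, was the highest of them after Lcn2, a lipocalin that was counted only through its KO arrays. Pdk4 had 428 and 927 in WT and 365 and 449.5 in KO (1.09). WT ALDO stood above the other 3 arrays, which lay between 365 and 449.5. Fkbp5, the co-chaperone that dampens corticosteroid receptor signalling, had 1360.5 and 2239.6 in WT and 1988 and 2322 in KO (0.71, or 0.50 as the mean of its probe sets). Tsc22d3, which encodes the leucine zipper protein GILZ, had 2758 and 4504 in WT and 3478 and 3958 in KO (0.70). The KO pair differed by 0.22 for Fkbp5 and 0.19 for Tsc22d3. The kinase Sgk1, which protects ENaC from removal at the membrane, had 7647 and 10325 in WT and 10819.8 and 14065 in KO (0.43), with 0.38 in the KO pair. Other targets were the redox protein gene Txnip (0.56), the metallothioneins Mt1 (0.53, or 1.18 as the mean of its probe sets) and Mt2 (0.36), the stress regulator Ddit4 (0.41) and the clock gene Per1 (0.32). The transcription factor Zbtb16 stood at 0.55, or 0.27 as the mean of its probe sets. The members furthest below 0 were Gadd45a (-0.55), a growth arrest gene, and Tob1 (-0.58), an antiproliferative gene that stood at 0.10 as the mean of its probe sets. In 12 of the 29 (41.4%), both ALDO arrays were above both control arrays, which was so for 17.1% of all counted genes.

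The receptor of aldosterone and the enzyme that guards it came next. Nr3c2, the mineralocorticoid receptor, was near the lower limit of the counted genes and was left uncounted, with 221 and 253 in WT and 254 and 249 in KO. Nr3c1, the glucocorticoid receptor, had 1891 and 2037 in WT and 1941 and 1526 in KO (0.11). Hsd11b2 had 2539.7 and 3775 in WT and 3800.4 and 3932 in KO (0.57), with WT control below the other 3 arrays, which lay between 3775 and 3932. The ENaC subunits differed among themselves. Scnn1b had 339.9 and 520.0 in WT and 803 and 715 in KO (0.59) and Scnn1g 871 and 1235 in WT and 2040.2 and 2599 in KO (0.50). Scnn1a had 534 and 549 in WT and 768 and 1196 in KO, a difference of 0.04 in WT and 0.63 in the KO pair. For Scnn1b and Scnn1g both KO arrays were above both WT arrays, so the treatment groups overlapped. In the wider list of sodium transport and aldosterone-responsive genes 26 of 28 were above 0 (median 0.32). In this list 8 (28.6%) had both ALDO arrays above both controls, against 17.1% of all counted genes. Its highest member was Slc26a4, pendrin, the chloride and bicarbonate exchanger of intercalated cells, with 856 and 1539.8 in WT and 1772 and 2115 in KO (0.84). The potassium channel Kcnj1 (0.43, or 0.19 as the mean of its probe sets), the kinases Stk39 (0.45, or 0.09) and Oxsr1 (0.40) that phosphorylate sodium chloride cotransporters, and the ubiquitin peptidase Usp2 (0.32) were above 0 as well. Slc12a3, the thiazide-sensitive cotransporter of the distal convoluted tubule, had 8323 and 10274 in WT and 8400.4 and 13104 in KO (0.30, and 0.61 as the mean of its probe sets).

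Markers of the collecting duct were above 0 throughout. The lists overlap with the sodium transport list above, which shares Hsd11b2, Scnn1a, Scnn1b and Scnn1g with the principal cell list and Slc26a4 with the intercalated cell list. All 14 counted principal cell markers were above 0 in WT (median 0.47), and they were so under every alternative setting tried. In the KO pair 10 of the 14 were above 0 (median 0.09). Both ALDO arrays were above both controls for 2 of the 14 (14.3%), against 17.1% of all counted genes. All 11 counted intercalated cell markers were above 0 in WT (median 0.57, or 0.26 among the brightest 25% of genes), 10 of them with the mean of all probe sets. In the KO pair 8 of the 11 were above 0 (median 0.28), and 4 (36.4%) had both ALDO arrays above both controls. Aqp2, the vasopressin-regulated water channel, had 3407 and 5412 in WT and 3194 and 3261 in KO (0.66), so WT ALDO was highest and the other 3 lay close together. Stc1, stanniocalcin, had 220.2 and 662 in WT and 194 and 294 in KO (1.52), again with WT ALDO well above the rest. Aqp4, the basolateral water channel, was at 0.79 in WT and -0.68 in the KO pair. Among intercalated cell genes, Slc4a9, an anion exchanger of the beta type, had 236 and 489 in WT and 397 and 605 in KO (1.002). Aqp6, a water and anion channel of intracellular vesicles, had 578 and 1127 in WT and 735 and 1524 in KO (0.94). For both genes the ALDO arrays lay above the control arrays in either genotype. Slc4a1, the anion exchanger of alpha cells and of red cells, was at 0.90 (0.59 as the mean of its probe sets), the proton pump subunit Atp6v0d2 at 0.85 (0.50) and the ammonia channel Rhcg at 0.57. WT control was the lowest of the 4 arrays for 9 of the 14 principal cell and 9 of the 11 intercalated cell markers. No share over all counted genes was taken, here or below, for the array that was lowest or highest. A gene's higher WT array cannot be the lowest, nor its lower WT array the highest, so such counts are partly built in. The summed intensity of the principal cell markers was 17930.4 in WT control, 25379 in WT ALDO, 21939 in KO control and 23473 in KO ALDO. For intercalated cell markers the sums were 26347, 30654, 36548 and 34025, so KO control was highest. The part of tubule content in these differences was not tested.

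Segments upstream of the collecting duct were more mixed. Thick ascending limb markers had a median of 0.04 with none of 11 past 1.5-fold either way, and summed intensities of 86892 in WT control and 88769.7 in WT ALDO. Distal convoluted tubule markers had a median of 0.29, 7 above 0 and 4 below, led by parvalbumin, Pvalb (0.64), the magnesium channel Trpm6 (0.57) and the sodium-calcium exchanger Slc8a1 (0.57). The proximal tubule lists had medians at or below 0, -0.0012 in segment S1 with 5 of 11 markers above 0, -0.08 in S2 with 1 of 8, and -0.23 in S3 with 4 of 14. The S3 median was -0.03 with the mean of all probe sets.

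**Figure D2:**
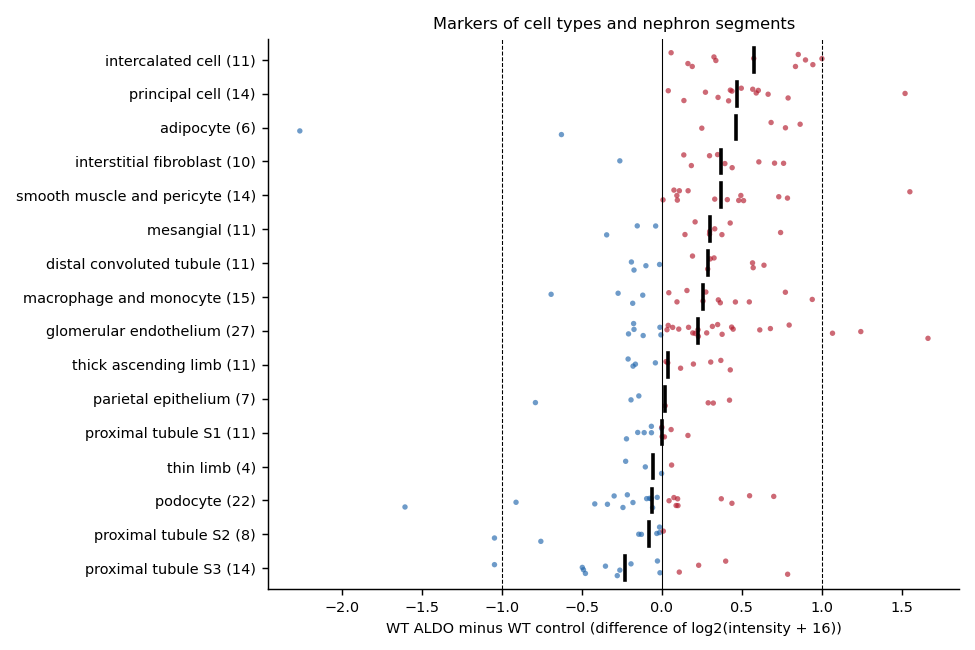
Each point is the WT ALDO minus WT control difference of 1 counted marker gene, each row a marker list with its number of counted genes in brackets, the black bar is the list's median, and dashed lines mark 2-fold. Intercalated and principal cell markers lie wholly right of 0, the podocyte list is centred near 0 with Sema3g and Rhpn1 far to the left, and proximal tubule S3 markers lie mostly left of 0.

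Among the endothelin, adrenomedullin and nitric oxide genes, Ednrb and Adm were higher by 2-fold or more. Ednrb, the endothelin B receptor, which on endothelium releases nitric oxide and clears endothelin, had 556 and 1799 in WT and 539.6 and 1736 in KO (1.66 in WT and 1.66 in the KO pair, and 1.13 in WT as the mean of its probe sets). Its ALDO arrays did not overlap its control arrays, and the genotypes were nearly level. Adm, adrenomedullin, a vasodilator peptide, had 352 and 873 in WT and 825 and 1944 in KO (1.27, with 1.10 in its next probe set). WT ALDO and KO control were close for Adm, and the ALDO values began just above the control values. Edn3, a ligand of the same receptor, was at 0.82, and Edn1, the main endothelial endothelin, at 0.43 with 205 and 283 in WT and 318 and 422 in KO. Nos3, the endothelial nitric oxide synthase, had 384 and 526 in WT and 500.007 and 680.2 in KO (0.44). The soluble guanylyl cyclase subunits Gucy1a1 (0.70) and Gucy1b1 (0.58, or 0.23 as the mean of its probe sets), which receive that nitric oxide, were above 0, and Gucy1a2 was at -0.04. The adrenomedullin receptor parts differed, with Ramp3 at 0.35, Calcrl at 0.17 and Ramp2 at -0.01. In total 15 of 20 members were above 0, where 51.9% of all counted genes were. Both ALDO arrays were above both controls for 10 (50%), against 17.1% of all counted genes.

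Other endothelial genes spanned from well above 0 to slightly below it. Of 27 counted markers, 21 were above 0, 6 by 1.5-fold or more and none lower by that much (median 0.23). Sost, sclerostin, a secreted Wnt antagonist listed here as a marker of glomerular endothelium, had 179 and 445 in WT and 158 and 806 in KO (1.24, and 2.24 in the KO pair). Tie1, an orphan receptor of the angiopoietin system, had 201 and 439 in WT and 302 and 544 in KO (1.07). Plvap, a protein of endothelial diaphragms, was at 0.68, the TGF-beta co-receptor Eng at 0.61 and Cdh5, VE-cadherin, at 0.80 (0.51 as the mean of its probe sets). The glomerular capillary genes Ehd3 (-0.17) and Plat (-0.18), the tight junction gene Cldn5 (-0.01) and the lipase Lpl (-0.21) were at or below 0, and Kdr, the main VEGF receptor, was at 0.19. Its ligand Vegfa was at -0.06. Among angiogenic ligands, Angpt2, an antagonist of Tie2, stood at 0.74 and Esm1, a product of sprouting endothelium, at 0.84, while Angptl7, an angiopoietin-like secreted protein, had 723 and 259 in WT and 257 and 419 in KO (-1.43) with only WT control high.

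Contractile and perivascular genes were above 0. All 14 counted smooth muscle and pericyte markers lay above 0 in WT, 13 with quantile normalization or equal array medians and 12 where probe sets were averaged, and all 14 did in the KO pair. Their WT median was 0.37, or 0.11 with the mean of all probe sets, and their KO median 0.73. Myh11, smooth muscle myosin, had 178 and 552 in WT and 296 and 510.1 in KO (1.55), and both ALDO arrays were above both controls. Rgs5, a pericyte regulator of G protein signalling, had 4039 and 6976 in WT and 5161 and 9159 in KO (0.79) with the same arrangement. Tagln, an actin-binding protein, had 478 and 805 in WT and 719 and 1995 in KO (0.73, and 1.45 in the KO pair). Acta2, smooth muscle actin, had 2511 and 3586 in WT and 2966 and 6797 in KO (0.51, and 1.19 in the KO pair), but the direction in WT turned to -0.34 with the mean of its probe sets. Mesangial markers had a median of 0.30 (0.18 among the brightest 25% of genes) with 8 of 11 above 0, among them the platelet-derived growth factor receptor Pdgfrb (0.43) and the Wnt modulator Sfrp2 (0.74). Agtr1a, the angiotensin II receptor, had 2477 and 2412 in WT and 1957 and 2249 in KO (-0.04), and the converting enzyme Ace was at -0.39 (-0.17 as the mean of its probe sets). The list of 7 counted renin-angiotensin genes had a median of -0.06; renin was not analysed here.

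Podocyte genes divided, with most near 0 and a few far from it. Of 22 counted markers 9 were above and 13 below 0 (median -0.06), and the sign of that median turned to 0.02 in the brightest 25% of genes and to 0.05 with the mean of all probe sets. Sema3g, a secreted semaphorin made by podocytes, had 5641 and 1843 in WT and 6674 and 1734 in KO (-1.61, and -1.93 in the KO pair). Rhpn1, which encodes a protein of the podocyte cytoskeleton, had 1048 and 550.0 in WT and 1314 and 659 in KO (-0.91, and -0.98). For both genes each ALDO array was below both control arrays. Wt1, the transcription factor that maintains podocytes, was at -0.42, Thsd7a at -0.34 and synaptopodin, Synpo, at -0.22. Above 0 were the cell cycle inhibitor Cdkn1c (2919 and 4752 in WT and 2467 and 5275 in KO; 0.70), the phosphatase Ptpro (0.55, or 0.30 as the mean of its probe sets) and the transcription factor Tcf21 (0.44, or 0.28). Podocalyxin, Podxl (0.10), alpha-actinin 4, Actn4 (0.08), and Cd2ap (-0.07) were near 0. The summed intensity of the markers was 61923 in WT control and 61127 in WT ALDO.

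Interstitial matrix genes were mostly above 0. Of 24 counted members, 22 were above 0 (median 0.42), 6 by 1.5-fold or more, and all 24 were above 0 in the KO pair, where the median was 0.81. Sparcl1, a matricellular protein, had 469 and 1182 in WT and 953 and 1796 in KO (1.30). Mgp, matrix Gla protein, an inhibitor of calcification, had 1592 and 3413 in WT and 2697 and 6436 in KO (1.09). The ALDO arrays of both genes lay above the control arrays. Col3a1, a fibrillar collagen chain, had 519.7 and 857 in WT and 1172 and 1999.7 in KO (0.71) and decorin, Dcn, had 448 and 771 in WT and 1318 and 1495 in KO (0.76); for these genes KO control was above WT ALDO, so the treatment groups overlapped. Fibronectin, Fn1, had 511 and 685 in WT and 757 and 1980.3 in KO, a difference of 0.41 in WT (0.10 as the mean of its probe sets) and 1.37 in the KO pair. Col6a1 was at 0.62 and Col6a2 at -0.64 although both encode chains of collagen VI, and the mean of the probe sets gave -0.19 for Col6a2. Basement membrane genes differed less, with 19 of 25 above 0 and a median of 0.15 (0.09 with the mean of all probe sets): Lama2 was at 0.82, Nid1 at 0.50 (0.08 as the mean of its probe sets), Col4a1 at 0.09 and Col4a3, a chain of the mature glomerular basement membrane, at -0.18. Fibroblast markers had a median of 0.37 with 9 of 10 above 0, and 13419 and 16779 as summed intensities in WT control and WT ALDO. This list shares genes with the matrix list, among them Col1a2, Col3a1 and Dcn, so it is not a separate reading. The part of fibroblast content in the matrix values was not tested.

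Genes of fatty acid oxidation, many of them controlled by the lipid-sensing receptor PPAR-alpha, held the 2 largest positive differences of all. Of 41 counted members 35 were above 0, 7 by 1.5-fold or more (median 0.25). In the KO pair 14 of 41 were above 0 (median -0.06), where 52.3% of all counted genes were. WT ALDO was the highest of the 4 arrays for 32 of the 41, a count without a share over all counted genes. Both ALDO arrays were above both controls for 7 of the 41 (17.1%), and for 17.1% of all counted genes. Cyp4a14, a fatty acid omega-hydroxylase, had 1740.0 and 14048 in WT and 4497 and 11113 in KO (3.00, and 1.30 in the KO pair). Both ALDO arrays were above both control arrays. Fabp1, the liver-type fatty acid binding protein, had 266 and 1461 in WT and 186 and 257 in KO (2.39), so WT ALDO stood alone. Eci1, an isomerase of unsaturated fatty acid oxidation, had 4793 and 9535 in WT and 6578 and 6677 in KO (0.99), and Angptl4, a secreted lipase inhibitor, had 1547 and 2772 in WT and 1511 and 1534 in KO (0.84, or 0.53 as the mean of its probe sets). For both of these the KO pair differed by 0.02. The thioesterase Acot3 was at 0.81, the peroxisomal thiolase Acaa1b at 0.71, the pantetheinase Vnn1 at 0.53, the long-chain dehydrogenase Acadl at 0.48 and the peroxisomal enzyme Ehhadh at 0.40. The gate of mitochondrial uptake, Cpt1a, was at 0.01, and Cyp4a12a, a male-type relative of Cyp4a14, at -0.41 with 9289 and 6998 in WT and 5171 and 4179 in KO.

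The promoter of Fabp1 is printed because this gene had the second largest positive difference and its window holds the letters AGGTCA, the core that PPAR-alpha and other nuclear receptors bind, at 67 and at 9 bases before the start. The window runs from 250 bases before to 50 bases after the RefSeq start, on GRCm38.p6 chr6:71199629-71199928, plus strand, and the capitals mark both matches, which read TGACCT because they lie on the opposite strand.
Fabp1: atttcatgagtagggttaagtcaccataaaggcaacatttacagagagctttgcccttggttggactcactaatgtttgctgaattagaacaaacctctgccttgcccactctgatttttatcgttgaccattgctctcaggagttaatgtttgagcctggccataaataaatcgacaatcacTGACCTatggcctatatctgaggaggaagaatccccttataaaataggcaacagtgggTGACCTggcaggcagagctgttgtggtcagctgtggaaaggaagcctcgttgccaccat
AGGTCA was searched on both strands and occurred in 16.3% of 32851 RefSeq promoter windows of this length, in 15.1% of the counted genes with a window and in 10 of 33 (30.3%) fatty acid oxidation genes. Of the genes past 2-fold it was found in 3 of 23 that were higher and 8 of 24 that were lower. AGAACA, a core bound by corticosteroid receptors, was found in 3 of 26 corticosteroid receptor targets (11.5%), in 19.0% of all windows and in 14.6% of those of counted genes. A match is a description of the letters and not a site.

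Other lipid and retinoid enzymes differed in both directions. All 20 counted genes of cholesterol synthesis lay above 0, 16 of them with the mean of all probe sets and 19 with probe sets chosen on the wild-type arrays. Their median was 0.25, or 0.09 with the mean of all probe sets, and 8 were above 0 in the KO pair. Lss, the cyclase that forms lanosterol, was at 0.68 (0.20 as the mean of its probe sets), Insig1, the sterol sensor partner, had 1432 and 2079 in WT and 1769 and 1382 in KO (0.53) and Sqle, squalene epoxidase, had 1571 and 2106 in WT and 1948 and 1749 in KO (0.42). For these last genes WT ALDO was the highest array and KO ALDO lay below KO control. Among fatty acid synthesis genes Fasn, the synthase itself, had 921 and 1435 in WT and 769 and 1127 in KO (0.63), and Scd1, the desaturase, had 2023 and 1304 in WT and 1489.9 and 1383 in KO (-0.63, or -0.34 as the mean of its probe sets). Rdh16f2, a retinol dehydrogenase, had 2269 and 7747 in WT and 5379.9 and 8851 in KO (1.76). Aldh1a1, which oxidises retinal, had 902 and 2031 in WT and 1344 and 1741 in KO (1.16), and its relative Aldh1a7 had 2073 and 4114 in WT and 3060.2 and 2732 in KO (0.98). WT ALDO was the highest array for both. The retinoic acid receptor Rarb had 338 and 694 in WT and 339 and 471 in KO (1.003), and Cyp26b1, which degrades retinoic acid, was at 0.92. Chemerin, Rarres2, had 588 and 1238 in WT and 1066 and 1889.6 in KO (1.05, or 0.65 as the mean of its probe sets). In vitamin D and steroid metabolism, Cyp24a1, which inactivates vitamin D, had 5938 and 3396 in WT and 4713 and 3673 in KO (-0.80), and Hsd3b3, a steroid dehydrogenase, had 2306 and 1099.6 in WT and 2096 and 808 in KO (-1.06, and -1.36 in the KO pair), with the ALDO arrays below the controls in each.

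Ang and Rnase4 encode angiogenin, a ribonuclease that promotes vessel growth, and ribonuclease 4. Ang had 440.3 and 1999 in WT and 611 and 789 in KO (2.14, or 1.55 as the mean of its probe sets). Rnase4 had 1126 and 3129 in WT and 861 and 1556 in KO (1.46). WT ALDO was the highest array for both, followed by KO ALDO. In the RefSeq table the genes share a promoter window, GRCm38.p6 chr14:51090827-51091126, plus strand, while Rnase4 has a further one that begins at position 51095750. The shared window is printed because both genes were among the 10 highest.
Ang and Rnase4: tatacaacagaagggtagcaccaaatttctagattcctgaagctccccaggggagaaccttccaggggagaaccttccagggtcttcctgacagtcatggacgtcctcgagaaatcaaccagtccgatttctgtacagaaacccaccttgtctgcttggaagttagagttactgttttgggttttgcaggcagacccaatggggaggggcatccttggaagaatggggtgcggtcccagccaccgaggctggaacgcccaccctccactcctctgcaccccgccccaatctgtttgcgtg

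Abcb1b, a multidrug efflux pump, had 207 and 871 in WT and 152 and 345 in KO (2.00, or 1.79 with 64 added before log2), and both ALDO arrays were above both controls. Slc51a, a subunit of the organic solute transporter of basolateral membranes, had 3426 and 6858 in WT and 3510.0 and 4420.4 in KO (0.998). Abcb1b was the highest of 27 counted organic ion and drug transporters, of which 17 were below 0 (median -0.14). Slc22a7, an organic anion transporter of the proximal tubule, had 2052 and 985 in WT and 594 and 581 in KO (-1.05), and the KO arrays were both below WT ALDO. Slco1a1, another anion transporter, had 4606 and 2721 in WT and 2957 and 1609 in KO (-0.76). Among other proximal tubule transporters, the sodium-hydrogen exchanger Slc9a3 was at -0.46 (-0.29 as the mean of its probe sets), the fructose transporter Slc2a5 at -0.50 and the glucose transporter Slc5a1 at 0.79.

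Genes that are expressed more in male than in female mouse kidney were mostly below 0. Of 19 counted members 15 were below 0 (median -0.26; KO median -0.34), and 7 (36.8%) had both ALDO arrays below both controls, against 16.1% of all counted genes. Ugt2b38, a glucuronosyltransferase, had 26588 and 5543 in WT and 6569 and 4512 in KO (-2.26), so WT control stood far above the other 3 arrays. Cyp2d12, a cytochrome P450, had 5354 and 2532 in WT and 1702 and 1848 in KO (-1.08) with WT control again alone. The transporter Slco1a1, the dipeptidase Cndp1 (-0.76) and the acyl-CoA synthetase Acsm3 (5139.5 and 3687 in WT and 2953 and 1607 in KO; -0.48) differed in the same direction in both pairs. Kap, the androgen-regulated kidney protein, was at -0.17, Cyp2e1 at 0.01 and Cyp7b1 at 0.11. WT control was the highest of the 4 arrays for 14 of the 19 genes, with no share over all counted genes taken. Female-biased genes had a median of -0.02 over 11 counted members, of which Cyp4a14 was highest and Slc22a7 lowest.

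Car3, a carbonic anhydrase abundant in fat and muscle, had 11254 and 2332 in WT and 7931 and 2917 in KO (-2.26, and -1.44 in the KO pair), with the ALDO arrays below the controls. In WT its next probe set gave -2.25, and the mean of all its probe sets, dim ones included, gave -0.95. The 6 counted adipocyte markers, Car3 among them, differed in both directions, 4 above and 2 below 0, the other lower one being Scd1 (-0.63, or -0.34 as the mean of its probe sets). Fabp4 had 1536 and 2811 in WT and 3109.7 and 4870.1 in KO (0.87, or 0.66 as the mean of its probe sets). Lipe, the hormone-sensitive lipase, was at 0.68, while the defining marker Adipoq was dim, with 102 and 141 in WT and 227 and 84.5 in KO. The remaining carbonic anhydrases lay between -0.25 for Car4 and 0.22 for Car15.

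**Figure D3:**
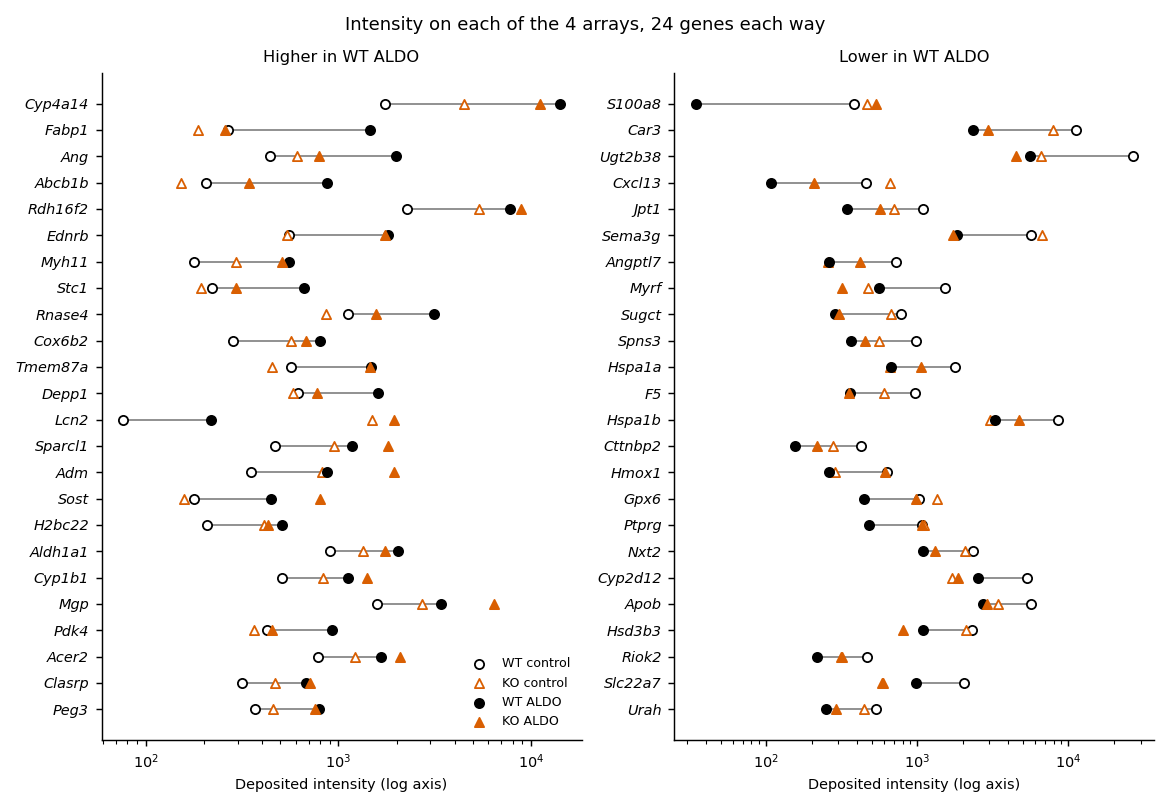
Deposited intensity on a log axis for the 24 genes with the largest differences in either direction, left higher and right lower in WT ALDO; circles are the wild-type arrays and triangles the knockout arrays, open for control and filled for ALDO, and a grey line joins the wild-type pair. Ednrb, Tmem87a and Sema3g show the ALDO arrays of both genotypes side by side and apart from both controls, while Fabp1 stands out in WT ALDO alone and Ugt2b38 in WT control alone.

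Heat shock genes were below 0 in 21 of 23 counted cases (median -0.12, or -0.23 with the mean of all probe sets), while 18 of 23 were above 0 in the KO pair. Hspa1a and Hspa1b, the inducible chaperones HSP70, had 1784 and 671 in WT and 656 and 1062 in KO (-1.39) and 8546 and 3291 in WT and 3014 and 4694 in KO (-1.37, with -1.08 in the next probe set). WT control was the highest array for both and for 15 of the 23 genes, again with no share over all counted genes. In none of the 23 were both ALDO arrays below both controls, against 16.1% of all counted genes. Dnajb1, a co-chaperone, had 2194 and 1654 in WT and 1647 and 1807 in KO (-0.40), and Hsph1, a nucleotide exchange factor of HSP70, had 4239.6 and 3304 in WT and 2450.4 and 2745 in KO (-0.36). Hspb1, the small heat shock protein, was at -0.19 in WT and 1.11 in the KO pair. The constitutive Hspa8 was at -0.01 and the mitochondrial Hspd1 at 0.09.

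The promoters of Hspa1a and Hspa1b are printed because these neighbouring genes had the largest differences in the list. Their promoter windows were identical at 296 of 300 positions (98.7%), and whether their probe sets read each other's RNA was not tested. Both windows are on the minus strand of GRCm38.p6, chr17:34972107-34972406 for Hspa1a and chr17:34959189-34959488 for Hspa1b, and the capitals mark the letters GAANNTTC, the core of a heat shock element, which lie 104 bases before the start of each gene.
Hspa1a: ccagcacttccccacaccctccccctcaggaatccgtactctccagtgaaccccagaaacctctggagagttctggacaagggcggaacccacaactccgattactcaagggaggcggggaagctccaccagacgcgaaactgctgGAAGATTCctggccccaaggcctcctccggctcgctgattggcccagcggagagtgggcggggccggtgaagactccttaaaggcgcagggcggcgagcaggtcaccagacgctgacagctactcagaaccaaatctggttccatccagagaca
Hspa1b: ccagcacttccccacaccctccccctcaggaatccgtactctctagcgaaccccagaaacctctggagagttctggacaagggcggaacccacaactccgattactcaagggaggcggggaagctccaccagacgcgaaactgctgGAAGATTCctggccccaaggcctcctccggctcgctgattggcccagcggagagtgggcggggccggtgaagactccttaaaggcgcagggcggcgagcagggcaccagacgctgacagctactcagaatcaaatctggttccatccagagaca
GAANNTTC was searched on both strands and occurred in 7.86% of all RefSeq windows, in 6.86% of those of counted genes and in 12 of 20 (60%) heat shock genes with a window. The 12 with a match had a median difference of -0.22 and the 8 without of -0.11, so the medians of both kinds were below 0. The shared window of Ang and Rnase4 holds the same letters 2 times.

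Genes of protein folding in the endoplasmic reticulum were also mostly below 0, 22 of 27 (median -0.16; KO median 0.07). Manf, a secreted survival factor induced by unfolded protein, had 4571 and 2529 in WT and 3637 and 4066 in KO (-0.85), so WT ALDO was the lowest array. Sdf2l1, an endoplasmic reticulum chaperone component, had 875 and 548 in WT and 632 and 815 in KO (-0.66) and Hspa5, the main chaperone BiP, had 11993 and 9130.4 in WT and 9852 and 10209 in KO (-0.39); WT ALDO was lowest for both. WT ALDO was the lowest array for 13 and WT control the highest for 16 of the 27 genes, with no share over all counted genes. In 4 of the 27 (14.8%) both ALDO arrays were below both controls, against 16.1% of all counted genes. Hmox1, heme oxygenase 1, an enzyme induced by oxidative and heme stress, had 632 and 262 in WT and 286 and 612 in KO, a difference of -1.22 in WT and 1.06 in the KO pair; the difference between the pairs was not tested. The 23 counted antioxidant genes, Hmox1 among them, had a median of -0.00091, with the quinone reductase Nqo1 at 0.44 and Gclc, which makes glutathione, at 0.36.

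Immune markers did not move as a block. S100a8 had 383 and 34.5 in WT and 462 and 533 in KO (-2.98, or -2.18 with 64 added before log2), so WT ALDO alone was low. S100a8 was counted only through its KO arrays, with a mean log2 value of 8.07 over the 4 arrays against a lower limit of 8.04. Its partner S100a9, with which it forms calprotectin of neutrophils, was under the signal limit but had the same arrangement, with 320.2 and 4.5 in WT and 468 and 453 in KO. The other 10 neutrophil markers on the array were dim on average and none was counted; among them Csf3r, the receptor of granulocyte growth factor, had 93.4 and 31.5 in WT and 65.7 and 98.6 in KO, and Camp, a granule peptide, had 8.05 and 11.6 in WT and 5.17 and 9.41 in KO. None of the 14 T and NK cell markers on the array was counted. Cxcl13, a chemokine that attracts B cells, had 459 and 108 in WT and 657 and 209 in KO (-1.94, -1.58 in the KO pair, and -1.68 in its next probe set), with both ALDO arrays below both controls. Macrophage markers had a median of 0.26 (0.10 among the brightest 25% of genes) with 11 of 15 above 0. C1qb, a complement subunit made by macrophages, had 145 and 293 in WT and 781 and 1059 in KO (0.94, or 0.50 as the mean of its probe sets and 0.33 with the probe set chosen on the wild-type arrays), Cd74 had 548 and 760.4 in WT and 1717 and 1578 in KO (0.46) and the protease Ctss was at -0.69. The summed intensity of the macrophage markers was 12394 in WT control, 13030.4 in WT ALDO, 23497 in KO control and 25982 in KO ALDO, so the genotypes stood further apart than the treatments. Lcn2, a lipocalin of injured tubules and neutrophils, had 76.5 and 218 in WT and 1497 and 1949.7 in KO (1.34, or 1.01 with 64 added before log2), with both WT values far below the KO values. Wfdc17, a small secreted protein of macrophages, had 169 and 75.9 in WT and 569 and 698 in KO (-1.01). For Lcn2 and Wfdc17 both WT values were under 247, the intensity at the lower signal limit, so these genes were counted only through their KO arrays. Birc3, an inhibitor of apoptosis induced by NF-kappaB, had 368 and 771 in WT and 1123 and 963 in KO (1.04, or 0.19 as the mean of its probe sets).

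Groups that serve every cell were close to 0 in the WT pair. The medians were -0.02 for 44 genes of the respiratory chain, -0.001 for 23 of the citric acid cycle, -0.01 for 29 of the cytosolic ribosome and 0.0021 for 31 of the proteasome. Across these 127 entries the only gene past 1.5-fold was the ribosomal protein gene Rpl37 (-0.66). In the KO pair their medians were -0.09, -0.18, -0.01 and -0.07. There 3, 0, 11 and 7 genes were above 0, where 52.3% of all counted genes were. Both ALDO arrays were below both controls for 18 (40.9%), 6 (26.1%), 8 (27.6%) and 6 (19.4%), against 16.1% of all counted genes. They were above both controls for 1, 0, 4 and 2. Cox6b2, the testis-type subunit of cytochrome oxidase, was far from the respiratory genes of its kind, with 284 and 798 in WT and 569 and 679 in KO (1.44). Medians of pathway lists with 7 or more counted genes ranged from 0.44 for the aquaporins (0.0025 with dim genes kept) down to -0.26 for the male-biased genes.

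**Figure D4:**
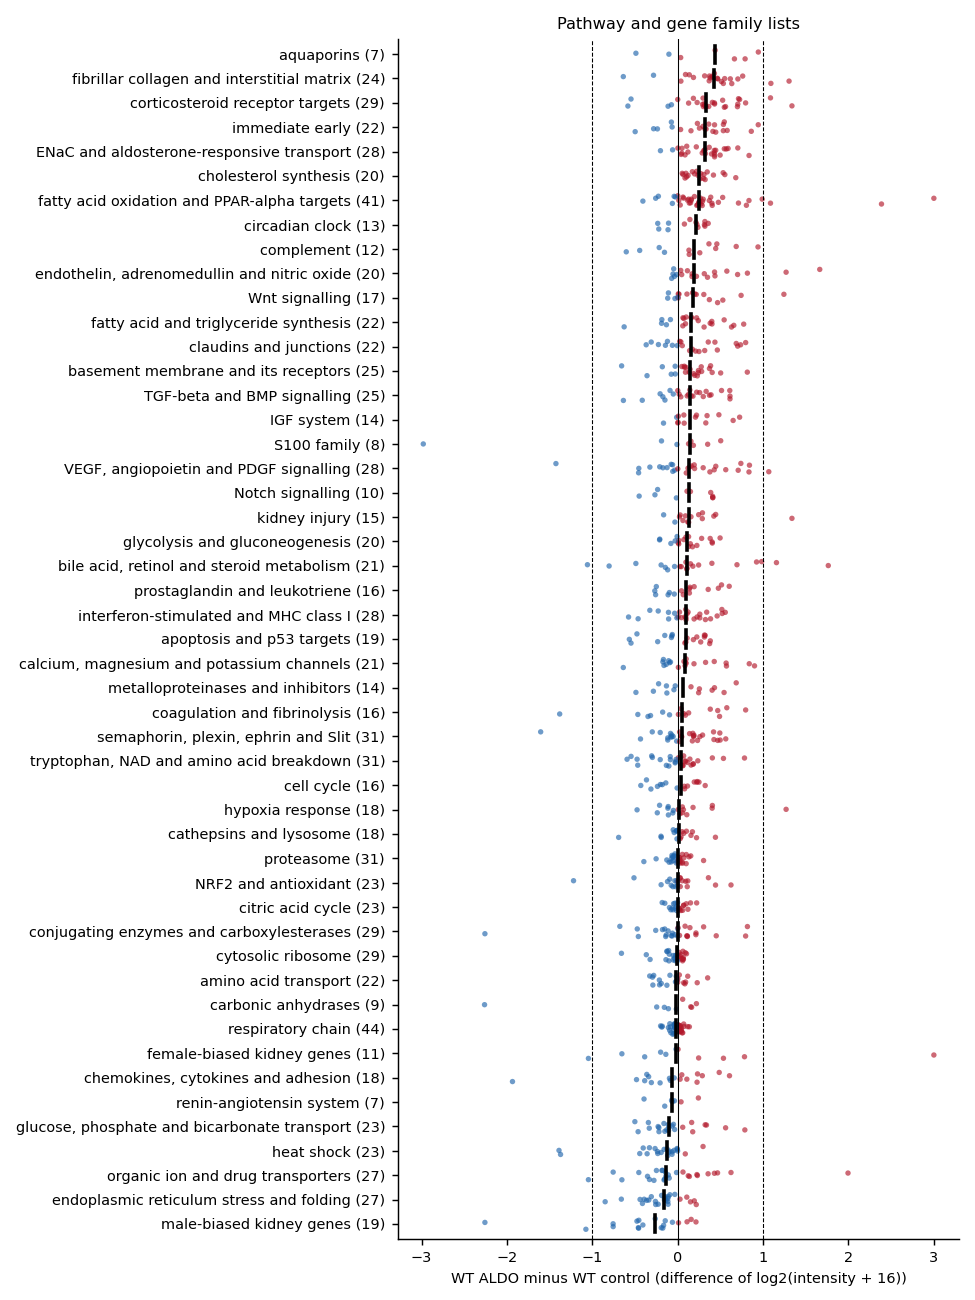
Each point is the WT ALDO minus WT control difference of 1 counted gene, each row a pathway or gene family list with at least 7 counted genes (number in brackets), the black bar is its median, and dashed lines mark 2-fold. Matrix, corticosteroid target, immediate early and sodium transport genes are among the rows furthest right, heat shock, organic ion transporter, endoplasmic reticulum and male-biased rows lie furthest left, and the respiratory chain and citric acid cycle rows are tightly packed at 0.

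Further genes past 2-fold had varied roles. Among those higher, Tmem87a, a Golgi membrane protein, had 566 and 1474 in WT and 454 and 1462 in KO (1.36, and 1.65 in the KO pair), with ALDO and control arrays wide apart in both genotypes. Depp1, a FOXO target, had 619 and 1599 in WT and 581 and 776 in KO (1.35, with 1.36 in its next probe set). Acer2, a Golgi ceramidase, had 781 and 1662 in WT and 1222 and 2092 in KO (1.07). Cyp1b1, a cytochrome P450 of vessels and stroma, had 509.6 and 1118 in WT and 830.0 and 1404 in KO (1.11, or 0.60 as the mean of its probe sets). The histone gene H2bc22 was at 1.24, the splicing regulator Clasrp at 1.07 and the imprinted zinc finger gene Peg3 at 1.07 (0.66 in its next probe set). For all 7 of these genes both ALDO arrays lay above both controls.

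Among those lower were proximal tubule and liver-type secretory genes. Apob, the structural apolipoprotein of large lipoproteins, had 5696 and 2717 in WT and 3418 and 2900.2 in KO (-1.06), and Apoh, a phospholipid-binding plasma glycoprotein, had 602 and 286 in WT and 511 and 301 in KO (-1.03, or -0.27 as the mean of its probe sets). F5, coagulation factor V, had 967 and 361 in WT and 605 and 355 in KO (-1.38, but -0.22 in its next probe set and -0.80 as the mean of its probe sets). Each had both ALDO arrays below both controls. Sugct, a coenzyme A transferase of glutarate metabolism, was at -1.39, but at -0.18 in its next probe set (-0.79 as the mean of its probe sets). Urah, an enzyme of urate breakdown, was at -1.04, the annexin Anxa13 at -1.04, Spns3 at -1.39 and the glutathione peroxidase relative Gpx6 at -1.17. Myrf, a membrane-bound transcription factor, had 1523 and 557 in WT and 469 and 317 in KO (-1.42), and WT control was the highest array by far. The rest were Jpt1 (-1.63, or -0.70 as the mean of its probe sets), Cttnbp2 (-1.36), the receptor phosphatase Ptprg (-1.14, or -0.66), the export factor Nxt2 (-1.11), the ribosome assembly kinase Riok2 (-1.05), Zfp777 (-1.04), the kinase Map3k12 (-1.03, or -0.10) and Stxbp5l (-1.02, or -0.55). The next probe set alone gave -0.38 for Jpt1, -0.93 for Ptprg, -0.17 for Map3k12 and -0.30 for Stxbp5l. Another 3 genes past 2-fold fell outside the rule for names and were chosen after their values were seen. Qars (1.08, or 0.16 as the mean of its probe sets) and Arnt (-1.67, or -0.14) each had another bright probe set of opposite sign, and 2810039B14Rik (-2.12, or -1.19) is named only as a clone.

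The knockout arrays, which share no array with the wild-type pair, were set beside the genes past 2-fold. Of the 30 higher genes, 29 (96.7%) were above 0 in the KO pair, where 52.3% of all counted genes were, with a median KO difference of 0.73, and 8 were past 2-fold there too. Birc3 (-0.22) was the exception. Of the 32 lower genes, 25 (78.1%) were below 0 in the KO pair, with a median of -0.45, 7 past 2-fold in the same direction and 1, Hmox1, past it in the other. Both ALDO arrays were above both controls for 27 of the 30 (90%; 17.1% of all counted genes) and below for 23 of the 32 (71.9%; 16.1%). Because the wild-type difference chose these genes, part of that arrangement is built in. The KO arrays also entered the signal limit, and Lcn2, S100a8 and Wfdc17 were counted only through them. WT control was the outermost array, lowest for 20 of the 30 and highest for 25 of the 32, and WT ALDO was the outermost at the other end for 16 and 19. These counts are partly built in too. Over all 9097 genes the differences of the WT and KO pairs correlated with Pearson's r 0.405 and Spearman's rho 0.351, across genes, which are not independent replicates; with the dim genes kept, Pearson's r was 0.109 over 18193 genes.

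**Figure D5:**
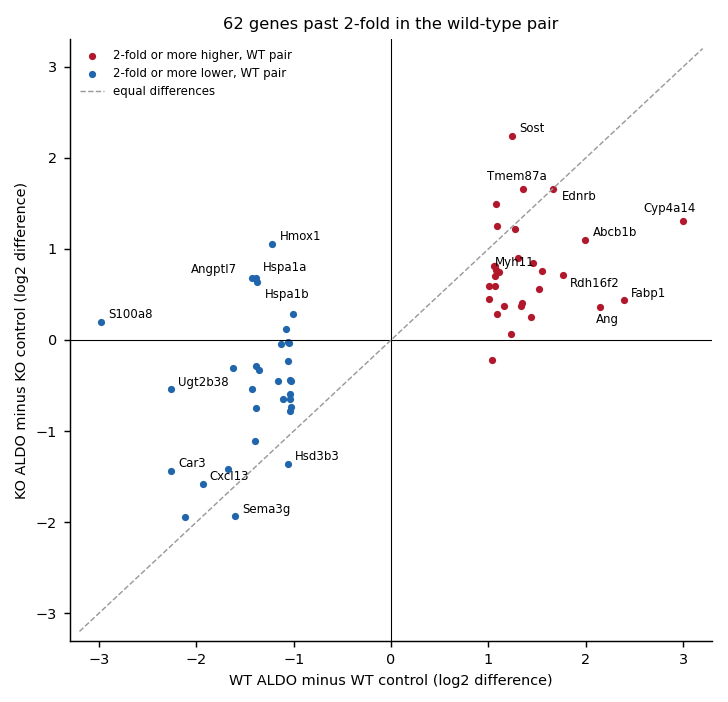
The 62 genes past 2-fold in the wild-type pair (red higher, blue lower), with the WT ALDO minus WT control difference on the horizontal axis and the KO ALDO minus KO control difference on the vertical axis, both log2; the dashed line marks equal differences. Ednrb, Tmem87a and Sema3g lie near that line, Fabp1 and Ang lie far below it, and Hmox1, Hspa1a, Hspa1b, Angptl7 and S100a8 lie above 0 on the vertical axis although they are lower in WT ALDO.

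Probes within a gene gave a second reading of the same RNA. Of the 62 genes past 2-fold, 16 had a further counted probe set, which had the same sign in 14 and was past 2-fold in 7. Across 3327 genes with a further counted probe set, the standard deviation between the readings was 0.20 on the log2 scale. This describes probes on the same 2 arrays and says nothing of the spread between mice. The probe sets of Ang, S100a8 and Rarres2 carry the suffix _s_at and those of Adm, H2bc22, Hsd3b3, Jpt1 and Qars the suffix _x_at, which mark sequences shared with other transcripts, so related genes may add to those readings.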

How the data were processed

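Expression was measured in glomerular RNA on 4 Affymetrix 3' arrays, 1 per group. The deposited values are intensities on a linear scale, 1 per probe set. They were made by the authors with Affymetrix Expression Console, per the submitters' processing notes, with an algorithm and version that the sources used here do not give. The trimmed mean (2% off each end) was 500.003 on each array, so the arrays had been scaled to a common level, and a change shared by all genes could not be seen. Of 45101 probe sets, 34945 carry 1 gene symbol in GEO's platform annotation, 932 several, 9160 none and 64 are controls. The number of arrays limits the precision; no batch labels were used.

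The 18193 genes with a single-symbol probe set were read by their brightest one, log2(intensity + 16) was taken, and the brighter 50% were compared, with Python 3.11.15, pandas 2.3.3, numpy 2.4.6, scipy 1.17.1 and matplotlib 3.10.9. The scripts were tested on simulated data. Members and lists were chosen with earlier results of these data known. There were 76 lists, 26 of cell types and 50 of pathways, with 1588 entries, of which 1444 genes are on the array and 1080 were counted; 12 symbols were updated through RefSeq GRCm38.p6, which also gave the promoters. Genes were named if among the 40 largest differences in each direction, leaving out clone names and genes whose other bright probe sets opposed the first by over 0.2, or if past 1.5-fold within a list or among its 3 highest or lowest members. A further set of aldosterone and kidney genes was always named. Another 47 genes were chosen by their known role after their values were seen. Alternatives were an added 1 or 64, quantile normalization, equal array medians, other signal limits, the mean of all probe sets, and choice on the wild-type arrays.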

Additional observations from a re-analysis of the deposited data

Results flagged for a closer look

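Hmox1, heme oxygenase 1, was lower in WT ALDO than in WT control (-1.22) and higher in KO ALDO than in KO control (1.06), past 2-fold in opposite directions in the genotypes. With 1 array per group the difference between the pairs was not tested. The values on the 4 arrays are given above beside the stress genes.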

How the results depend on the processing

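The counts of 30 genes higher and 32 lower by 2-fold moved to 619 and 471 with dim genes kept and to 10 and 8 in the brightest 25% of genes, which tests other numbers of genes; under the other alternatives they stayed within 1.5 times. Genes higher made up 48.4% of those past 2-fold, and between 43.8% with equal array medians and 56.8% with dim genes kept. A list median was taken to turn in sign only where it first lay further from 0 than the spread that the standard deviation between probe sets gives. Of 44 such lists 7 turned, as follows, and the cause was not tested; of 20 lists closer to 0, 15 changed sign under some alternative. In the brightest 25% of genes the podocyte median became 0.0237, adipocyte -0.19, chemokines, cytokines and adhesion 0.11, and apoptosis and p53 targets -0.0633. With the mean of all probe sets the podocyte median became 0.0456, adipocyte -0.13, TGF-beta and BMP signalling -0.0022, and Notch signalling -0.0153. With the probe set chosen on the wild-type arrays, chemokines, cytokines and adhesion became 0.0038. With dim genes kept, the S100 family became -0.033. Of 3517 recomputed gene differences, 3405 stayed within 0.20, the standard deviation between probe sets of a gene, and 112 moved further. None past 1.5-fold turned in sign. Keeping dim genes (471 differences) or only the brightest 25% (267) could not move a gene, since these settings change only which genes are counted. Equal array medians shifted all 471 genes by the same amount, under 0.20. The mean of all probe sets moved 103 of 442 genes and so gave 103 of the 112. List medians were judged by the smaller spread that the standard deviation between probe sets gives for a list, which narrows with the number of counted members. Of 511 recomputed list medians 456 stayed within it, 45 moved, and 10, in the 7 lists named above, turned in sign. No paired analysis was possible because each group is 1 array. Depth has no meaning for arrays; signal over background limits the dim genes, and 1 array per group leaves the spread between mice unknown.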

Other observations

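Immediate early genes, which respond within minutes to growth factors, stretch and calcium, were above 0 in 17 of 22 cases (median 0.33, KO median 0.58). Of the 22, 11 (50%) had both ALDO arrays above both controls, against 17.1% of all counted genes. Fos, a subunit of the AP-1 factor, had 218 and 433 in WT and 333 and 502 in KO (0.94), and Nr4a1, an orphan nuclear receptor, was at 0.58. The stress genes Gadd45b (0.86, or 0.37 as the mean of its probe sets) and Klf2 (0.45), a flow-responsive factor of endothelium, were also above 0. Ccn1, a matricellular target of YAP, was at -0.50 in WT and 1.06 in the KO pair, while its relative Ccn2 was at 0.53 and 0.53. Clock genes had a median of 0.21 (0.08 with the mean of all probe sets and 0.11 with dim genes kept), with Per3 at 0.36, Nr1d2 at 0.31 (0.01), Dbp at 0.14 and Per2 at -0.23. The sources do not give the hours at which tissue was taken.

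In the insulin-like growth factor system 12 of 14 counted genes were above 0 (median 0.14, or 0.07 among the brightest 25% of genes), 9 with equal array medians and 8 where probe sets were averaged. Igfbp1, a binding protein induced by fasting and corticosteroids, was at 0.73 in WT and -0.70 in the KO pair, Igfbp3 at 0.65 and 0.98, and Igf1 itself at 0.48 (0.31 as the mean of its probe sets) and 0.21. Among junction genes the distal nephron claudins Cldn7 (0.70) and Cldn4 (0.69) and the gap junction gene Gja1 (0.74) were above 0, and Cldn2, of the proximal tubule, was at -0.12. Bmp2 (0.61) and Bmp4 (0.51) were above 0 in the TGF-beta and BMP list, whose inhibitor of differentiation Id2 was at -0.64 and Id1 at 0.33. Cell cycle genes were divided evenly, with 8 above and 8 below 0. Thbd, thrombomodulin, an anticoagulant receptor of endothelium, was at 0.80, and the urokinase receptor Plaur at 0.58. Injury markers had a median of 0.13 (0.24 with dim genes kept) over 15 counted genes. Lcn2, which was counted only through its KO arrays, was the only member past 1.5-fold. Clusterin, Clu, was at 0.45 and vimentin, Vim, was at 0.03 in WT and 0.996 in the KO pair. The median of interferon-stimulated genes was 0.10, with Ifit3 at 0.52 and Usp18 at -0.58.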
